A study of Mus musculus with 8 samples.

Results

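The activity-dependent immediate early genes are the genes that neurons transcribe within minutes of synaptic input or depolarization, before any new protein is needed. They were followed here in mice that carry a deletion at *Scn1a*, the gene of the voltage-gated sodium channel NaV1.1. 10 of the 24015 entries of the deposited count table were taken by their gene symbol, namely *Fos*, *Fosb*, *Junb*, *Egr1*, *Egr2*, *Npas4*, *Nr4a1*, *Btg2*, *Arc* and *Bdnf*. All 10 genes passed the filter on low counts, which kept 15588 genes with at least 1 CPM (counts scaled to a library of 1000000 counts) in at least 1 library.

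RNA was sequenced from 8 C57BL/6N mice at P7, the seventh postnatal day, in 3 genotypes of a single Cas9 deletion line. WT mice (n = 2, both male) carried no deletion. 1b+/- mice (n = 4, replicates 1 and 2 male, replicates 3 and 4 female) lacked the conserved non-coding 1b interval of *Scn1a*, which holds an alternative promoter, on 1 allele. 1b-/- mice (n = 2, both female) lacked it on both alleles, and no other allele or treatment was given for any group. Sex and genotype therefore cannot be told apart between WT and 1b-/-. Hippocampus is the labelled tissue, but according to the study's methods P7 forebrain was used. According to the labels, the mice were anesthetized with isoflurane before tissue was taken.

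The libraries held 2947770 to 20878772 counts, the fewest in 1b+/- replicate 4. *Scn1a*, the targeted gene, was 45.1 and 40.5 CPM in WT, 26.7, 22.2, 25.4 and 15.7 CPM in 1b+/-, and 3.18 and 2.003 CPM in 1b-/-, so every library stood in the order of its label. All 10 neuronal markers were detected, with a summed level of 6085 to 7348 CPM per library. Markers of hippocampus summed to 212 to 322 CPM, with *Lct* at 0 in a library, while markers of neocortex summed to 2559 to 4443 CPM, with *Lamp5* at 0 in a library. Striatal markers, all 12 above 0 in every library, summed to 610 to 979 CPM, so genes used to mark tissue other than hippocampus were measured in every library. A lower level of a gene in such bulk RNA can mean fewer cells of a type or less RNA per cell, and these cannot be told apart.

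Immediate early genes respond through transcription factors that already sit in the resting cell. Calcium entry and kinase signalling activate CREB, which binds the cyclic AMP response element (CRE), and serum response factor, which binds the CArG box. The products then act in 2 ways. *Fos*, *Fosb*, *Junb*, *Egr1*, *Egr2*, *Nr4a1* and *Npas4* encode transcription factors that switch on later genes. *Arc* encodes a protein of the synapse, *Bdnf* a secreted neurotrophin, and *Btg2* a regulator of cell division and messenger RNA decay. In hippocampus and neocortex the RNA of several of these genes, *Fos* among them, is widely used to mark neurons that have recently fired.

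The promoters show what these genes have in common in sequence. RefSeq windows, given on GRCm38.p6 and not on the mm9 build of the counts, were matched for 8 of the 10 genes, and none was matched for *Egr1* and *Arc*. The 250 bases before each annotated start were searched. The core of the CRE, TGACG on either strand, was found before at least 1 start of all 8 genes, against 19.8% of 27025 genes with a window. *Egr2* and *Bdnf* have 5 and 7 windows, which gives them more chances of a match. The core site nearest to a start is shown for each gene, because it is the only searched motif that all of them held. Capitals mark the core site, read on the strand of the gene (CGTCA is TGACG on the other strand), and positions count back from the start.
*Fos*, chr12:85473640-85473939, + strand, -66 to -62: ttccgcccagTGACGtaggaagtcc
*Fosb*, chr7:19309996-19310295, - strand, -60 to -56: gagttgcgggTGACGcaagcgcggg
*Junb*, chr8:84978699-84978998, - strand, -106 to -102: ttcctgacagTGACGcgagccgcct
*Egr2*, chr10:67537619-67537918, + strand, -55 to -51: tgggcagcgaCGTCAcgggtattga
*Npas4*, chr19:4989922-4990221, - strand, -169 to -165: cgtcacgggaTGACGtcggaagtct
*Nr4a1*, chr15:101266596-101266895, + strand, -40 to -36: cctctccatgCGTCAcggagcgctt
*Btg2*, chr1:134079106-134079405, - strand, -163 to -159: ccaataatgaCGTCAgtgagcgatg
*Bdnf*, chr2:109692186-109692485, + strand, -35 to -31: tgacagctcaCGTCAaggcagcgtg

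The other motifs divided the genes. The full CRE, TGACGTCA, was present in *Btg2* alone, where it contains the core site shown above (1.77% of genes). A CArG box was present in *Egr2* alone (1.62% of genes). The EGR site, GCGNGGGCG on either strand, lay before *Fosb*, *Nr4a1* and *Btg2* (5.33% of genes), and the AP-1 site, TGANTCA, before *Bdnf* (7.82%). TATAAA on the strand of the gene was present in *Fos* alone (8.94%). These matches describe letters in a short window, and a motif with no match may lie outside it. The 3 sequences below show the full CRE, a CArG box of *Egr2* and the EGR site of *Fosb*, with the motif in capitals. Another *Egr2* window, chr10:67537316-67537615, holds a different CArG box at the same -72 to -63, which is not shown.
*Btg2*, full CRE, -166 to -159: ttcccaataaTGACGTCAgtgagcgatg
*Egr2*, CArG box, -72 to -63 of the window shown above: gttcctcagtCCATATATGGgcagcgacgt
*Fosb*, EGR site, -50 to -42: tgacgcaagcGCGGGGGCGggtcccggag

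All 10 genes were expressed at low levels at P7. The mean level of each lay below the median of 18.7 CPM over the genes tested. To compare genes, CPM was divided by the kilobases of annotated exon. On that scale *Btg2* was highest at 5.68 ± 0.972 CPM per kb (SD, n = 8 libraries), just above the median of 5.37 CPM per kb over 14294 tested genes with a length. The other 9 were below that median. *Nr4a1* followed at 2.31 ± 0.452 CPM per kb, then *Egr1* at 1.70 ± 0.424 and *Bdnf* at 1.48 ± 0.214 CPM per kb. *Junb* and *Arc* were close to each other at 1.24 ± 0.238 and 1.16 ± 0.163 CPM per kb. *Fos* reached 0.586 ± 0.218 and *Npas4* 0.564 ± 0.268 CPM per kb, with *Egr2* at 0.398 ± 0.184 and *Fosb* last at 0.173 ± 0.122 CPM per kb. Neighbours in this order overlapped over the libraries except at 2 steps, from *Btg2* to *Nr4a1* and from *Arc* to *Fos*, where the higher gene was above the lower in 8 of 8 libraries. *Btg2* was thus above the other 9 genes without overlap. The step from *Arc* to *Fos* separates these neighbours only and does not divide the genes into tiers. *Npas4*, which comes after *Fos*, was higher in 1b-/- replicate 2 than the lowest values of *Egr1*, *Junb* and *Arc*.

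**Figure D1:**
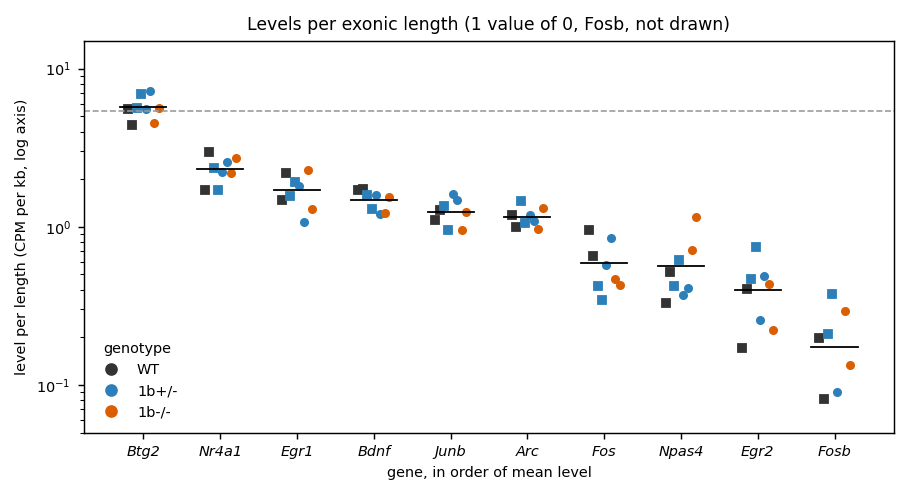
Levels of the 10 genes in CPM per kb of exon on a log axis, 1 point per library (squares male, circles female, coloured by genotype), with black bars at the mean over 8 libraries and a dashed line at the median of all tested genes (5.37 CPM per kb). *Btg2* alone has a mean above the dashed line, and *Fosb*, whose value of 0 in 1b+/- replicate 4 is not drawn, is lowest at a mean of 0.173.

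The members are described by role, beginning with the AP-1 transcription factors. *Fos* (mm9 chr12:86814840-86818223, + strand) encodes the founding member of the AP-1 family and is the most used marker of neuronal activation. It was 2.23 and 1.53 CPM in WT, 0.990, 0.808, 1.36 and 2.003 CPM in 1b+/-, and 1.10 and 1.001 CPM in 1b-/-. Both WT libraries were above both 1b-/- libraries, and the 1b+/- values ran from below the 1b-/- pair up into the range of WT. *Fosb* (chr7:19888070-19895394, - strand), whose product forms AP-1 dimers with Jun proteins, had 9 and 2 counts in WT, 12, 14, 7 and 0 in 1b+/-, and 9 and 2 in 1b-/-. Levels were 0.307 to 0.744 CPM in WT, up to 1.41 CPM in 1b+/-, and 0.501 to 1.10 CPM in 1b-/-. The 0 was in the library with the fewest counts, where 3 counts would be 1.002 CPM, more than the level of 5 of the other 7 libraries, so absence was not detectable there. *Junb* (chr8:87500811-87502617, - strand), a Jun partner in AP-1, was 1.98 and 2.30 CPM in WT, 2.44, 1.72, 2.91 and 2.67 CPM in 1b+/-, and 1.71 and 2.25 CPM in 1b-/-. For *Fosb* and *Junb* the 3 genotypes overlapped.

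The 2 zinc finger genes of the EGR family also overlapped between genotypes. *Egr1* (chr18:35020861-35024638, + strand), induced in cortex and hippocampus by synaptic activity, was 4.55 and 6.74 CPM in WT, 4.88, 5.96, 5.57 and 3.34 CPM in 1b+/-, and 7.10 and 4.01 CPM in 1b-/-. The highest and the second lowest of its values were those of the 1b-/- pair. *Gm17507* lies across *Egr1* on the other strand, and since the use of strand in counting was not stated, reads of the pair cannot be told apart. *Egr2* (chr10:66998223-67004936, + strand), also required for myelination by Schwann cells, was 0.579 and 1.38 CPM in WT, 1.58, 2.53, 0.872 and 1.67 CPM in 1b+/-, and 1.47 and 0.751 CPM in 1b-/-. These came from 3 to 25 counts per library, and the highest library was 4.36 times the lowest.

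*Npas4* and *Nr4a1* complete the transcription factors. *Npas4* (chr19:4984355-4989971, - strand) encodes a neuronal bHLH-PAS factor that responds selectively to depolarization and calcium entry and regulates inhibitory synapses. It had 13 and 11 counts in WT, 21, 20, 25 and 4 in 1b+/-, and 19 and 15 in 1b-/-. These correspond to 1.07 and 1.69 CPM in WT, 1.39, 2.02, 1.21 and 1.34 CPM in 1b+/-, and 2.33 and 3.75 CPM in 1b-/-. Both 1b-/- libraries were above all other 6. *Npas4* was the only 1 of the 10 genes whose 1b-/- values were separate from both other genotypes, where 3.66% of all genes were. The counting intervals (95%, exact Poisson) of the 1b-/- values, 1.40 to 3.63 and 2.10 to 6.19 CPM, nevertheless overlapped those of most of the other libraries. *Nr4a1* (chr15:101097277-101105223, + strand), an orphan nuclear receptor, was 4.22 and 7.36 CPM in WT, 5.81, 4.24, 5.53 and 6.34 CPM in 1b+/-, and 5.39 and 6.76 CPM in 1b-/-. The WT pair held both its lowest and its highest value.

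*Btg2*, *Arc* and *Bdnf* have products that are not DNA-binding factors. *Btg2* (chr1:135971747-135975697, - strand), with the most counts of the 10 genes, was 15.3 and 12.1 CPM in WT, 15.5, 18.9, 15.2 and 19.7 CPM in 1b+/-, and 12.5 and 15.5 CPM in 1b-/-. The 2 highest libraries were 1b+/-, though the other 1b+/- pair lay within the range of WT and 1b-/-. *Arc* (chr15:74499513-74503000, - strand), whose RNA travels to active synapses, was 3.64 and 3.06 CPM in WT, 4.42, 3.23, 3.64 and 3.34 CPM in 1b+/-, and 2.94 and 4.01 CPM in 1b-/-. Its libraries spanned only 1.51-fold. *Bdnf* (chr2:109514857-109567204, + strand), the ligand of the receptor kinase TrkB, was 9.92 and 10.1 CPM in WT, 9.31, 7.58, 9.26 and 7.01 CPM in 1b+/-, and 7.10 and 9.01 CPM in 1b-/-. Both WT libraries were above all 6 libraries with a deleted allele.

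**Figure D2:**
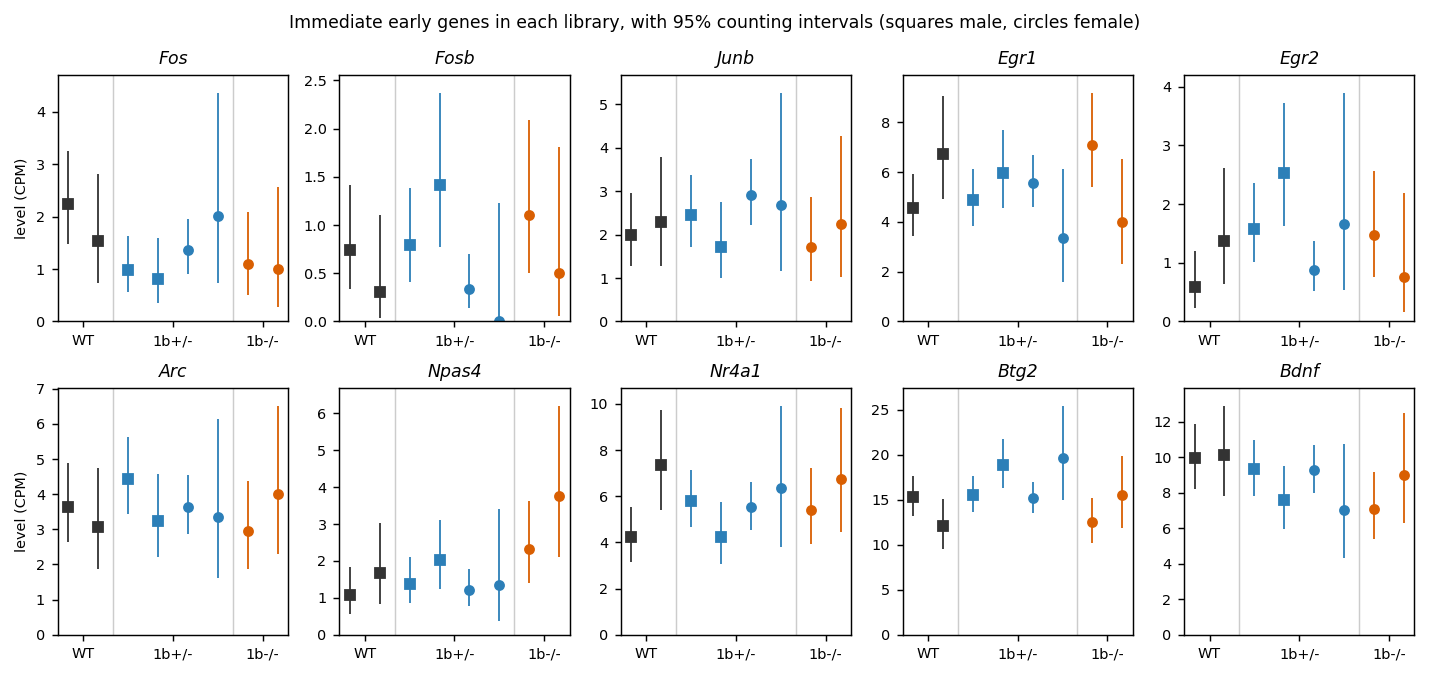
CPM of each gene in the 8 libraries (squares male, circles female), grouped by genotype, with 95% exact Poisson intervals of the count as bars. Most intervals overlap across genotypes, *Npas4* is highest in the 1b-/- pair (2.33 and 3.75 CPM), and *Bdnf* is highest in the WT pair (9.92 and 10.1 CPM).

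Of the 80 values, 17 rested on fewer than 10 counts. The spread over libraries was therefore set against counting error alone. Chi-square per degree of freedom, which is near 1 when counts vary only by chance of sampling, had a median of 1.84 over the 10 genes. It was 4.45 over all genes tested and 2.63 over the 6222 genes whose total counts lay in the range of the 10. *Arc* (0.705) and *Junb* (0.970) varied no more than counting error gives. *Egr2* (3.09), *Btg2* (2.95) and *Npas4* (2.84) had the largest ratios. The biological coefficient of variation fitted by edgeR ranged from 0.165 for *Btg2* to 0.502 for *Fosb*, with a median of 0.228 against 0.185 over all genes.

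The summed level of the 10 genes was 44.2 and 46.6 CPM in WT, 47.1, 48.4, 45.9 and 47.4 CPM in 1b+/-, and 42.7 and 47.6 CPM in 1b-/-. The mean rank of a library over the 10 genes ran from 3.9 in WT replicate 1 to 5.2 in 1b+/- replicate 1. Each library was highest for 1 or 2 of the genes. 1b+/- replicate 1 was above the median of the 8 libraries for 7 of the 10 genes, and the other libraries were above it for 4 to 6.

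The first comparison asked whether loss of 1 allele changed the genes. 1b+/- and WT differed in none of the 10 genes by edgeR's quasi-likelihood test (adjusted p = 0.9999 for each), where 0.0834% of all genes passed. At an unadjusted p under 0.05 the count was also 0 of 10, where 4.34% of all genes passed, and neither DESeq2 nor edgeR's likelihood ratio test passed any at either level. 6 genes had a log2 fold change above 0 and 4 below, with a median of 0.14 against 0.012 over all genes. The extremes were *Egr2* at 0.81 (SE 0.62) and *Fos* at -0.67 (SE 0.48). *Bdnf* was the only gene without overlap, lower in all 4 1b+/- libraries (8.29 ± 1.17 CPM, SD, n = 4) than in WT (10.02 ± 0.133 CPM, SD, n = 2), where 12.3% of all genes had no overlap in one direction or the other. Its log2 fold change was -0.25 (SE 0.22, 95% interval -0.72 to 0.22).

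The widths of the intervals set what these data could show. They ran from ± 0.44 for *Btg2* to ± 1.92 for *Fosb* on the log2 scale. For *Btg2* the interval of -0.13 to 0.76 leaves out a change of 1 log2 unit in either direction. For *Egr1*, *Arc* and *Nr4a1* it was -0.80 to 0.56, -0.52 to 0.79 and -0.71 to 0.57, which also leave out such changes. That of *Bdnf*, -0.72 to 0.22, did so too. For *Fos* (-1.72 to 0.37), *Egr2* (-0.55 to 2.16) and *Fosb* (-1.60 to 2.24) the interval held a change of that size in at least one direction. The intervals of *Npas4* (-0.87 to 1.16) and, narrowly, *Junb* (-0.62 to 1.01) held such an increase.

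Loss of both alleles gave the widest contrast in *Scn1a*. Between 1b-/- and WT, 0 of the 10 genes passed the adjusted test (adjusted p = 1 for each), where 0.00642% of all genes passed. The count at an unadjusted p under 0.05 was 0, against 1.64% of all genes, and DESeq2 also passed none at either level. The likelihood ratio test of edgeR passed *Npas4* alone before adjustment, and the share of all genes it passed was not counted. The median log2 fold change of the 10 was 0.03, and that of all genes was -0.0056.

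3 of the 10 genes had no overlap between 1b-/- and WT, where 23.6% of all genes had none. *Npas4* was higher, at 3.04 ± 1.01 CPM against 1.38 ± 0.432 CPM (SD, n = 2 each). Its log2 fold change was 1.13 (SE 0.53, 95% interval -0.02 to 2.29). *Fos* and *Bdnf* were lower. *Fos* was 1.05 ± 0.0714 CPM in 1b-/- and 1.88 ± 0.495 CPM in WT, a log2 fold change of -0.84 (SE 0.61, interval -2.17 to 0.48). *Bdnf* was 8.06 ± 1.35 CPM and 10.02 ± 0.133 CPM, a log2 fold change of -0.33 (SE 0.26, interval -0.90 to 0.24). None of these differences was past the adjusted threshold, and genotype and sex cannot be told apart in them. The other 7 genes had log2 fold changes from -0.13 for *Junb* to 0.60 for *Fosb*. *Btg2* was 0.01 (interval -0.52 to 0.53), *Arc* 0.01 (-0.80 to 0.81) and *Egr1* 0.05 (-0.76 to 0.85).

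1b-/- and 1b+/- were compared next. Again 0 of 10 genes passed the adjusted test (adjusted p = 1 for each), as did 0.00642% of all genes. *Npas4* was the 1 gene of 10 at an unadjusted p under 0.05, where 1.23% of all genes were. Its mean level was 3.04 ± 1.01 CPM in the 1b-/- pair and 1.49 ± 0.362 CPM over the 4 1b+/- libraries (± SD), and the log2 fold change was 0.99 (SE 0.44, interval 0.02 to 1.95). *Npas4* was also the only 1 of the 10 without overlap, against 7.39% of all genes. DESeq2 passed 0 of 10 before adjustment and the likelihood ratio test 1, and their shares of all genes were not counted. The remaining 9 log2 fold changes ran from -0.46 for *Egr2* to 0.28 for *Fosb*, with a median over the 10 of -0.11 against -0.0043 over all genes.

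**Figure D3:**
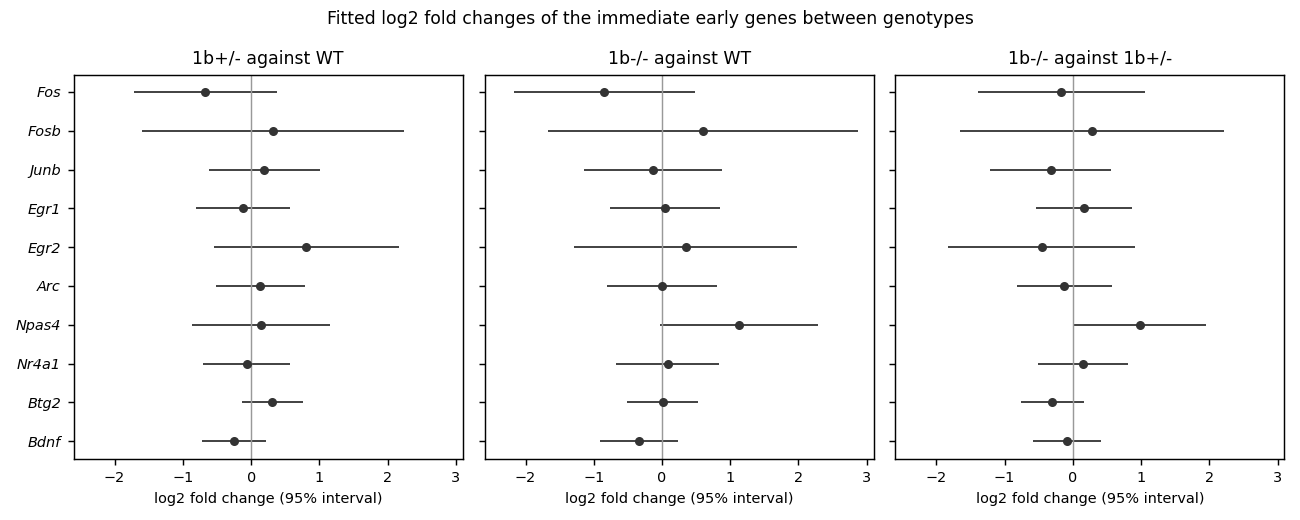
Fitted log2 fold changes (points) with 95% intervals (bars) of the 10 genes in the 3 comparisons of genotypes, with a grey line at 0. All intervals hold 0 except that of *Npas4* between 1b-/- and 1b+/- (0.02 to 1.95), which did not pass after adjustment over 15588 genes.

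A slope on the number of deleted alleles used all 8 libraries. No gene of the 10 passed after adjustment (adjusted p = 0.9999 for each), where 0.0385% of all genes did. *Npas4* was again the 1 gene at an unadjusted p under 0.05, against 1.73% of all genes. Its log2 change was 0.58 per allele (SE 0.26, interval 0.01 to 1.15). DESeq2 gave 0 and the likelihood ratio test 1, and their shares of all genes were not counted. *Fos* had the lowest slope, -0.45 per allele (SE 0.29, interval -1.07 to 0.18). These slopes share their libraries with the comparisons above and are not independent of them.

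The difference of *Npas4* rested on few libraries. Over 16 alternative fits its log2 fold change between 1b-/- and 1b+/- stayed above 0, from 0.64 to 1.33, and its unadjusted p was under 0.05 in 6 of them. Leaving out 1b-/- replicate 2 gave the lowest value, 0.64, and leaving out 1b-/- replicate 1 the highest, 1.33. Without any 1 of WT replicates 1 and 2, 1b+/- replicates 1, 3 and 4 or 1b-/- replicate 2 the unadjusted p was above 0.05, as it was in DESeq2, without a filter, with upper quartile scaling and in a fit of the 2 groups alone. Between 1b-/- and WT the 16 values ran from 0.79 to 1.56, with an unadjusted p under 0.05 in 3. With sex as a covariate the values were 1.56 against WT and 1.23 against 1b+/-, with adjusted p = 0.9999 and adjusted p = 1. That fit takes its sex term from the 1b+/- libraries alone and carries it over to WT and 1b-/-. It therefore does not separate sex from genotype in those groups. The 1b-/- libraries held 8405494 and 3940859 counts.

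Levels of other cell types were set beside these values. Neuronal markers summed to 7284 and 7314 CPM in WT, 6085 to 7181 CPM in 1b+/-, and 6778 and 7348 CPM in 1b-/-. All 4 1b+/- libraries were thus below both WT libraries, as they were for *Bdnf*. 1b-/- replicate 2 (7348 CPM) was above both WT libraries, and its *Bdnf* (9.01 CPM) was below both. Hippocampal markers summed to 288 and 322 CPM in WT, 212 to 269 CPM in 1b+/-, and 266 and 268 CPM in 1b-/-. Both WT libraries were above all 6 libraries with a deleted allele, which is also the order of *Bdnf*. Neocortical markers summed to 3779 and 3847 CPM in WT, 2559 to 3849 CPM in 1b+/-, and 2839 and 4443 CPM in 1b-/-, which overlap. Striatal markers summed to 817 and 837 CPM in WT, 610 to 808 CPM in 1b+/-, and 728 and 979 CPM in 1b-/-. 1b-/- replicate 1 had the highest neocortical and striatal sums, and its *Bdnf* was 7.10 CPM. The part of these markers in the values of *Bdnf* was not tested.

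Markers of the other cells differed too. All 14 vascular and meningeal markers were detected, with sums of 1011 to 1524 CPM in 1b-/-, 876 to 1303 CPM in WT and 1201 to 2345 CPM in 1b+/-, which overlap. All 12 choroid plexus markers were detected, with sums of 509 to 934 CPM in 1b-/-, below the 1059 to 1116 CPM of WT, and 116 to 1073 CPM in 1b+/-. All 10 astrocytic markers were detected, with sums of 955 to 981 CPM in 1b-/-, below the 1100 to 1222 CPM of 1b+/-, and 900 to 1112 CPM in WT. Oligodendrocyte markers, with *Mag* and *Mobp* at 0 in a library, summed to 216 to 240 CPM in 1b+/-, above both the 167 to 189 CPM of WT and the 184 to 207 CPM of 1b-/-. *Npas4* was thus compared between 1b-/- and 1b+/- libraries that also differed without overlap in astrocytic and oligodendrocyte markers. Microglial markers summed to 61.4 to 70.8 CPM in WT, 67.3 to 98.4 CPM in 1b+/- and 63.1 to 75.04 CPM in 1b-/-, which overlap. Thalamic markers, with *Shox2* at 0 in a library, summed to 244 to 534 CPM in WT, 235 to 538 CPM in 1b+/- and 244 to 396 CPM in 1b-/-, which overlap.

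1b+/- replicate 1 stood apart in its tissue markers. Of 12 midbrain and hindbrain markers, 10 were tested, and all but *Gata3* and *Tph2* were at 0 in a library. The tested ones summed to 52.1 CPM in this library, 14.1 CPM in 1b+/- replicate 2 and at most 9.34 CPM in the others. *En1*, *En2* and *Gata3*, picked from this list after their values were seen, were 10.3, 15.6 and 16.8 CPM in 1b+/- replicate 1. In the other 7 libraries they were at most 1.52, 2.53 and 4.13 CPM. The same library had the lowest neocortical sum (2559 CPM) and the highest vascular and meningeal sum (2345 CPM). With or without this library, 0 of the 10 genes passed after adjustment in any of the 5 comparisons. Leaving it out is therefore no test of the part of its tissue. The part of these marker differences in the values of the 10 genes was not tested.

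Sex could be compared within 1b+/-, 2 females against 2 males. 0 of 10 genes passed after adjustment (adjusted p = 0.9999 for each), where 0.0321% of all genes did, and 0 of 10 at an unadjusted p under 0.05, where 2.66% did. The likelihood ratio test of edgeR passed 1 of the 10 before adjustment and DESeq2 none, and their shares of all genes were not counted. *Fosb* had the largest difference, with 7 and 0 counts in females and 12 and 14 in males, a log2 fold change of -1.95 (SE 0.93, interval -4.00 to 0.10). *Npas4*, higher in the female 1b-/- pair, was 1.21 and 1.34 CPM in female and 1.39 and 2.02 CPM in male 1b+/- mice, a log2 fold change of -0.43 (SE 0.54, interval -1.61 to 0.76).

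These genes are known to rise together after a stimulus, and their co-variation over the 8 libraries was described next. The 45 pairs had a median Pearson r of 0.0039 on log2 CPM, with 23 pairs above 0 and 22 below. The median Spearman rho was 0.0, and the median r was -0.0026 after genotype means were removed. For comparison, the 10 genes had a median r of 0.0046 with the 15578 other genes, with quartiles of -0.33 and 0.33. All pairs share the same 8 libraries and their depths.

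No pair passed adjustment over the 45 (smallest adjusted p = 0.805 for r and 0.721 for rho, exact permutation tests over 40320 orders). 1 pair was under 0.05 before adjustment, *Fosb* with *Junb*, partners in AP-1, and it was negative. Its r was -0.77 (exact permutation p = 0.0227) and its rho -0.74 (exact permutation p = 0.0458), with r = -0.74 without the 2 libraries farthest from the median of *Fosb*. *Fos* with *Fosb* was also negative (r = -0.62, rho = -0.67, exact permutation p = 0.0962 and 0.0831), and r was -0.84 without its 2 farthest libraries. *Fos* with *Junb* was 0.34 (rho = 0.26, exact permutation p = 0.397 and 0.536).

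7 pairs had r below -0.5 and 2 above 0.5. The highest was *Fosb* with *Egr1* (r = 0.58, rho = 0.45, exact permutation p = 0.125 and 0.268). It fell to 0.02 without 1b+/- replicates 2 and 4, so it rested on those libraries. *Junb* with *Nr4a1* was 0.54 (rho = 0.48, exact permutation p = 0.172 and 0.243) and 0.30 without its 2 farthest libraries. *Arc* with *Bdnf* followed at 0.45 (rho = 0.29, exact permutation p = 0.255 and 0.501), which became 0.19. Among the negative pairs, *Egr1* with *Btg2* went from -0.68 (rho = -0.71, exact permutation p = 0.0614 and 0.0576) to -0.28 without its 2 farthest libraries. *Egr1* with *Egr2*, the 2 EGR genes, was 0.27 (rho = 0.17, exact permutation p = 0.519 and 0.703). *Npas4* was most negative with *Fos* (r = -0.63, rho = -0.64, exact permutation p = 0.0932 and 0.0962), and this was -0.39 without WT replicate 1 and 1b+/- replicate 4.

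**Figure D4:**
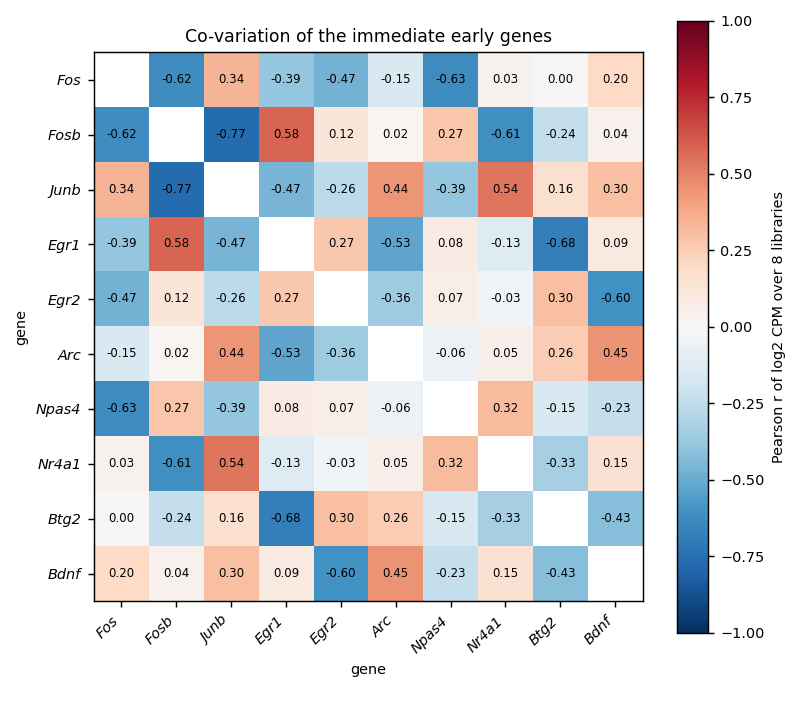
Pearson r of log2 CPM over the 8 libraries for each of the 45 pairs of genes, from -1 (blue) to 1 (red), with the value in each cell. Positive and negative pairs are about equally many (23 and 22), from -0.77 for *Fosb* with *Junb* to 0.58 for *Fosb* with *Egr1*.

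Each gene was also set against the mean standardized log2 level of the other 9. This r was -0.72 for *Fos*, -0.56 for *Fosb*, -0.55 for *Egr1*, -0.53 for *Btg2*, -0.48 for *Egr2* and -0.38 for *Npas4*. It was near 0 for *Junb* (-0.07), *Bdnf* (-0.02), *Nr4a1* (-0.01) and *Arc* (0.09). 9 of the 10 values were thus below 0, and no gene followed the mean of the rest. These values restate the pair correlations above and are not independent of each other. The median r of those pairs was 0.0039, against 0.0046 for the 10 genes with the other genes. No such count was made for other sets of genes, so whether this one is unusual was not tested. Among 11226 other genes with a mean of at least 5 CPM, those most like the mean profile of all 10 were *Tubg2* (r = 0.96), *Dusp3* (0.95), *Mpp2* (0.94), *Ctu2* (0.94) and *Ptprn* (0.94). The least alike were *Polr3f* (-0.97), *Map4k5* (-0.94) and *Slc30a1* (-0.94). These are the extremes of 11226 values over 8 libraries and are given as a description.

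Further early response genes outside the 10 were listed to see whether the wider program moved. Of 36, 34 were tested and 0 passed after adjustment in either direction in any of the 3 comparisons of genotypes. Between 1b+/- and WT 4 of the 34 were under an unadjusted p of 0.05, where 4.34% of all genes were. *Nr4a2*, an orphan receptor that also marks deep cortical neurons and dopaminergic neurons, was 194 and 154 CPM in WT, 77.0, 67.3, 155 and 109 CPM in 1b+/-, and 185 and 147 CPM in 1b-/-. Its log2 fold change was -0.77 (SE 0.27, adjusted p = 0.9999) between 1b+/- and WT and 0.71 (SE 0.27, adjusted p = 1) between 1b-/- and 1b+/-. The 2 lowest 1b+/- libraries were the male ones, and the 1b-/- pair overlapped WT.

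The other 3 were *Nr4a3*, *Klf2* and *Atf3*. *Nr4a3*, the third member of the NR4A family, was 31.3 ± 2.59 CPM in the WT pair, 19.4 ± 7.32 CPM over the 4 1b+/- libraries and 22.8 ± 2.11 CPM in the 1b-/- pair (± SD). *Klf2*, a factor abundant in endothelium, was 2.26 ± 0.272, 3.996 ± 0.664 and 4.08 ± 0.461 CPM in the same order. *Atf3*, a stress-induced factor, was 0.354 ± 0.150, 1.43 ± 0.305 and 1.37 ± 0.547 CPM. Its values of 0.248 and 0.460 CPM in WT replicates 1 and 2 rest on 3 counts each. So does its lowest 1b+/- value, 1.002 CPM in replicate 4. *Klf2* and *Atf3* were the 2 of 34 under 0.05 before adjustment between 1b-/- and WT, where 1.64% of all genes were. The vascular and meningeal markers, whose sums are given above, were lowest in WT replicate 1. In WT replicate 2 (1303 CPM) they were above 1b+/- replicate 3 (1201 CPM) and 1b-/- replicate 2 (1011 CPM). *Klf2* and *Atf3* were lower in both WT libraries than in every library with a deleted allele, and the share of all genes in that order was not counted. The part of the vascular and meningeal markers in these values was not tested. In the comparison of 1b-/- with 1b+/-, 2 of 34 were under 0.05, *Nr4a2* and *Ier3*, where 1.23% of all genes were. *Ier3* was 1.86 ± 0.555 against 3.56 ± 0.567 CPM. The medians of the 34 log2 fold changes were -0.04 for each deletion genotype against WT and -0.0029 between 1b-/- and 1b+/-. Of those with a mean of at least 5 CPM, *Plk3*, a kinase, had the highest value between 1b+/- and WT (0.42, SE 0.38) and between 1b-/- and WT (0.14, SE 0.45). *Klf4* had the lowest between 1b-/- and WT (-0.52, SE 0.29) and between 1b-/- and 1b+/- (-0.55, SE 0.26).

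Genes that neurons induce later, through the factors above, were listed as well. 11 of 12 were tested and 0 passed in any of the 3 comparisons, before or after adjustment. *Nptx2*, a secreted pentraxin of excitatory synapses, had the lowest log2 fold change between 1b+/- and WT (-0.42, SE 0.31), and *Adcyap1*, the neuropeptide PACAP, the highest (0.30, SE 0.28). Between 1b-/- and WT these were *Nrn1* (-0.30, SE 0.23) and *Grasp* (0.42, SE 0.30), and between 1b-/- and 1b+/- *Adcyap1* (-0.44, SE 0.30) and *Vgf* (0.32, SE 0.51). The list medians were -0.07, -0.14 and 0.0041 in that order of comparisons.

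Of the upstream regulators, all 21, among them CREB, SRF cofactors, MEF2 factors and calcium-dependent kinases, were tested, and 0 passed before or after adjustment in any of the 3 comparisons. *Mef2c*, a factor of cortical neurons, was 1660 ± 6.90 CPM in the WT pair, 1295 ± 317 CPM over the 4 1b+/- libraries and 1520 ± 662 CPM in the 1b-/- pair (± SD), with a log2 fold change of -0.36 (SE 0.26) between 1b+/- and WT. The other extremes were *Atf1* (0.21, SE 0.24, and -0.20, SE 0.24, between 1b-/- and 1b+/-), *Elk4* (0.20, SE 0.28) and *Mef2a* (-0.14, SE 0.22) between 1b-/- and WT, and *Camk2a* (0.32, SE 0.20) between 1b-/- and 1b+/-. The list medians were -0.06, -0.04 and 0.05.

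*Bdnf* acts with a family of neurotrophins and receptors, and all 8 listed members were tested. 0 passed before or after adjustment in any of the 3 comparisons. *Ntf3*, neurotrophin 3, was 12.1 ± 2.004 CPM in the WT pair, 8.83 ± 2.68 CPM over the 4 1b+/- libraries and 11.2 ± 0.261 CPM in the 1b-/- pair (± SD). Its log2 fold changes were -0.47 (SE 0.28) between 1b+/- and WT and 0.35 (SE 0.29) between 1b-/- and 1b+/-. *Ngfr*, the low-affinity neurotrophin receptor, was 0.31 (SE 0.36), -0.20 (SE 0.44) and -0.52 (SE 0.38) in the 3 comparisons, and *Ntrk3*, the receptor of neurotrophin 3, was 0.06 (SE 0.20) between 1b-/- and WT.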

How the data were processed

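Poly(A) RNA of 8 mice was sequenced from stranded libraries, single end, and the authors mapped the reads to mm9 (STAR 2.7.2) and assigned them to genes (featureCounts). The deposited values are raw counts per gene symbol, 1 column per mouse, not normalized. The annotation release, the use of strand and the handling of multiply mapping reads are not given in the sources used here. In 27 entries the symbol had become a date.

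All counts were fitted together with edgeR 4.0.16 in R 4.3.3 (TMM scaling, at least 1 CPM in at least 1 library, quasi-likelihood test), with genotype as the factor, and adjusted by the Benjamini-Hochberg method over 15588 genes at 0.05. CPM uses TMM-scaled library sizes. Intervals are 95%, and those of counts cover counting error only. Correlations used log2 CPM with a prior count of 2, in scipy 1.17.1. The alternatives were 2 other filters, 2 other scalings, the likelihood ratio test, DESeq2 1.42.0, sex as a covariate, a fit of the 2 groups compared alone, and each library left out. Scripts were tested on simulated data. Gene positions are from the GENCODE annotation of mm9.

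Genotype and sex are from the labels. Replicates were numbered in order of deposit and pair no animals, and p-values measure the spread between these animals. The genes, lists and tests were chosen with earlier results of these data known. The rule for naming genes took all 10 genes, the genes most and least like their mean profile, and from each list those past the threshold or, with none, the extremes at 5 CPM or more. *Nr4a2*, *Nr4a3*, *Klf2*, *Atf3* and *Ier3* were named after their values were seen. The list of midbrain and hindbrain markers is given by its summed level and by single values for 3 of its genes only.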

Additional observations from a re-analysis of the deposited data

How the results depend on the processing

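In 77 alternative fits over the 5 comparisons no gene of the 10 passed after adjustment, and the smallest adjusted p was 0.576. The median r of the 45 pairs stayed between -0.10 and 0.02 under 13 alternatives. The median log2 fold change of the 10 ran from -0.05 to 0.17 (1b+/- against WT), -0.23 to 0.08 (1b-/- against WT) and -0.13 to -0.01 (1b-/- against 1b+/-), so its sign depended on the library left out in the first and second. Of 477 single-gene values 445 kept their sign and their side of the threshold, and 32 changed sign, all of genes that passed in no fit. The cause was not tested.

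With sex as a covariate, whose term rests on the 1b+/- libraries alone, *Junb* became -0.0143 (1b+/- against WT). *Nr4a1* became -0.12 (1b-/- against WT) and *Egr2* 0.10 (1b-/- against 1b+/-). Between 1b-/- and WT, *Arc* became -0.0041 without a filter and -0.0109 in the likelihood ratio test, and *Btg2* became -0.0003 without a filter. Leaving out 1 library in turn gave ranges that cross 0. Between 1b+/- and WT these were -0.24 to 1.16 (*Fosb*), -0.40 to 0.17 (*Egr1*), -0.18 to 0.46 (*Npas4*) and -0.44 to 0.36 (*Nr4a1*). Between 1b-/- and WT they were -0.16 to 1.45 (*Fosb*), -0.31 to 0.0837 (*Junb*), -0.47 to 0.35 (*Egr1*), -0.29 to 1.01 (*Egr2*), -0.20 to 0.24 (*Arc*), -0.29 to 0.51 (*Nr4a1*) and -0.14 to 0.20 (*Btg2*). Between 1b-/- and 1b+/- they were -0.48 to 0.85 (*Fosb*), -0.35 to 0.47 (*Egr1*), -0.33 to 0.11 (*Arc*), -0.0066 to 0.32 (*Nr4a1*) and -0.25 to 0.0943 (*Bdnf*). *Fosb* did not pass the filter by expression and has no value there. No paired analysis was possible because replicate numbers come from the order of deposit. *Fosb*, *Fos* and *Egr2* had the fewest counts, 55, 107 and 103 counts over the 8 libraries.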
